A study of Mus musculus with 8 samples.

Results

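The genes described here are the 4 mouse ERBB receptor genes, Egfr, Erbb2, Erbb3 and Erbb4, and 5 listed negative regulators of receptor level or activity. The regulators are Lrig1, Lrig3, Errfi1, Cbl and Cblb, and for Lrig3 the action on ERBB receptors is less settled. All 9 genes were taken by name as a list, chosen with earlier results of these data known, from the 32728 genes in the table. Of the 9, 8 passed the filter on low counts, among 16719 genes tested, and Erbb4 did not. RNA was sequenced from colon cancer organoids, epithelial cultures grown in a matrix, of 2 lines from C57BL/6 mice: CTO19, labelled male, and apsMC706, labelled female. Both lines, in every group, carry disruptions of Apc, Trp53 and Smad4 made by CRISPR, and none of the groups has intact copies as a control. The groups were CTO19 noEGF, CTO19 EM, apsMC706 noEGF and apsMC706 EM, with 2 libraries each. EM is the medium with B27, noggin (an inhibitor of BMP ligands), galunisertib (an inhibitor of the TGF-beta receptor) and EGF, in which organoids were kept for 3 days, and noEGF is culture for 7 days with EGF left out. Medium and days in culture cannot be told apart, nor can line and labelled sex. The labels do not say that the 2 libraries of a group came from separate cultures, or whether a line is 1 clone. P-values within a line or between the lines therefore measure a spread between libraries, estimated over all groups, which may be technical. Those over both lines together also count each library as 1 sample. In bulk RNA, fewer cells of a type and less RNA per cell cannot be told apart.

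ERBB receptors are transmembrane tyrosine kinases that pair on binding ligands of the EGF family. Egfr binds EGF, Erbb2 binds no known ligand and acts as a partner, Erbb3 binds neuregulins and has a weak kinase, so that it signals through its partners, and Erbb4 binds neuregulins and some EGF-type ligands. Active receptors are taken into the cell and either recycled or sent to the lysosome. The CBL proteins attach ubiquitin to active receptors and so mark them for lysosomal sorting, LRIG1 binds ERBB receptors at the membrane and promotes their loss, and ERRFI1 (also called MIG6) binds the kinase domain and inhibits it. In the intestine Lrig1 and Egfr are expressed in the crypt, and EGF is a standard component of organoid medium.

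The 8 libraries held 35650262 to 38953838 counts each. Levels are given as CPM, the count a gene would have in a library of 1e+06 counts after TMM scaling, and a count of 0 allows up to 3 counts, or 0.0745 to 0.0868 CPM, per library. The share of counts from mitochondrially encoded genes was 4.13% to 5.19% in noEGF libraries and 2.94% to 3.68% in EM libraries. All 10 epithelial markers had counts, and their summed level was 3834 to 3920 CPM in CTO19 noEGF, 3041 to 3191 CPM in CTO19 EM, 3652 to 3684 CPM in apsMC706 noEGF and 3757 to 3802 CPM in apsMC706 EM. The labels call the organoids colon cancer. Among the intestinal markers, Vil1 averaged 55.1 CPM in CTO19 noEGF, 28.2 in CTO19 EM, 166 in apsMC706 noEGF and 226 in apsMC706 EM, and Lgals4 averaged 16.9, 8.75, 186 and 399 CPM in the same groups. The intestinal factor Cdx1 was at or near the level of single counts in every group (0 to 0.0937 CPM as a mean), and Cdx2 averaged 1.101 CPM in CTO19 noEGF, 2.05 CPM in CTO19 EM, 10.1 CPM in apsMC706 noEGF and 9.32 CPM in apsMC706 EM. The 8 fibroblast markers, all with a count somewhere, summed to 10.9 to 11.5 CPM in CTO19 noEGF, 1.88 to 1.91 CPM in CTO19 EM, 7.77 to 8.93 CPM in apsMC706 noEGF and 4.05 to 4.14 CPM in apsMC706 EM. The 7 immune markers, likewise all with a count, summed to 5.79 to 6.34 CPM in CTO19 noEGF, 4.64 to 4.83 CPM in CTO19 EM, 8.14 to 8.24 CPM in apsMC706 noEGF and 1.46 to 1.66 CPM in apsMC706 EM, while the pan-leukocyte marker Ptprc averaged at most 0.114 CPM in any group. The 4 endothelial markers, all with a count, summed to 0.370 to 1.79 CPM in a library, and the 4 glial and muscle markers, of which Des was at 0, to 3.01 to 4.69 CPM. Single genes carried these sums. Dcn averaged 9.90 CPM in CTO19 noEGF against 0.100 CPM in CTO19 EM, where Pdgfra (0.787 in noEGF against 1.24 in EM) and Col3a1 (0.0994 against 0.212) went the other way, and Col3a1 averaged 7.84 CPM in apsMC706 noEGF against 3.85 CPM in apsMC706 EM. Cd68 averaged 5.28 CPM in CTO19 noEGF against 4.46 CPM in CTO19 EM, and 7.62 CPM in apsMC706 noEGF against 1.26 CPM in apsMC706 EM. The summed levels of both lists and the mitochondrial share were higher in noEGF libraries of both lines, and their part in the results on medium was not tested. The disrupted genes were detected in every library: Apc had 59.8 to 78.2 CPM in CTO19 and 177 to 198 CPM in apsMC706, Trp53 28.4 to 33.3 CPM in CTO19 and 13.0 to 16.4 CPM in apsMC706, and Smad4 10.8 to 19.1 CPM in CTO19 and 33.7 to 39.9 CPM in apsMC706. Gene counts do not check CRISPR edits, since an edited gene can still be transcribed.

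The receptor RNAs were compared first between noEGF and EM. Erbb3 rose in both lines by like amounts, Egfr rose in apsMC706, Erbb2 rose in CTO19, and Erbb4 had no count in any library. The receptor whose RNA rose therefore differed between the lines for Egfr and Erbb2 but not detectably for Erbb3.

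Erbb3 (ENSMUSG00000018166, chromosome 10, 128567523 to 128589652 on the minus strand of mm10) had 154 and 161 CPM in the CTO19 noEGF libraries, against 68.9 and 66.5 CPM in CTO19 EM. It had 193 and 191 CPM in apsMC706 noEGF, against 81.7 and 81.8 CPM in apsMC706 EM. Every noEGF library lay above every EM library, across the lines as well as within them. The log2 fold change was 1.22 in CTO19 (SE 0.0415, adjusted p = 8.37e-12, edgeR quasi-likelihood test) and 1.23 in apsMC706 (SE 0.0409, adjusted p = 3.03e-12). The CTO19 response minus the apsMC706 response was -0.02 (95% interval -0.14 to 0.11, adjusted p = 0.851). That interval reflects the spread between libraries only, for 1 line against 1 line, and does not show that the responses were equal.

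Egfr (ENSMUSG00000020122, chromosome 11, 16752203 to 16918158, plus strand), the receptor for the ligand that was left out, had 86.4 and 77.3 CPM in CTO19 noEGF, against 81.3 and 66.1 CPM in CTO19 EM. In apsMC706 it had 32.2 and 34.0 CPM in noEGF, against 14.6 and 15.1 CPM in EM. The noEGF and EM libraries overlapped in CTO19 and lay apart in apsMC706. The log2 fold change was 0.15 in CTO19 (SE 0.0951, adjusted p = 0.196) and 1.16 in apsMC706 (SE 0.118, adjusted p = 4.05e-05), and the responses differed by -1.01 (SE 0.152, adjusted p = 0.000656). Without CTO19 EM replicate 1, the CTO19 change was 0.30 and passed the threshold (adjusted p = 0.000667), without CTO19 EM replicate 2 it was 0.0085, and with no filter on low counts it was 0.13 and passed (adjusted p = 0.0248). The difference between the lines kept its direction and its call with each library left out.

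Erbb2 (ENSMUSG00000062312, chromosome 11, 98412470 to 98437716, plus strand), the partner receptor without a ligand of its own, had 145 and 142 CPM in CTO19 noEGF, against 85.9 and 89.9 CPM in CTO19 EM. In apsMC706 it had 64.6 and 67.0 CPM in noEGF, against 64.8 and 60.6 CPM in EM. Here the libraries lay apart in CTO19 and overlapped in apsMC706, the opposite of Egfr. The log2 fold change was 0.71 in CTO19 (SE 0.0455, adjusted p = 4.74e-09) and 0.07 in apsMC706 (SE 0.0475, 95% interval -0.03 to 0.17, adjusted p = 0.207), and the responses differed by 0.64 (SE 0.0657, adjusted p = 1.12e-06). The small apsMC706 change passed the threshold with other scalings or filters, at most 0.19 with a filter of 1 CPM in 4 libraries (adjusted p = 0.00245). That filter also shifted the median of all genes in this comparison by 0.099. Without CTO19 noEGF replicate 1 or 2 the change was 0.16 in each case, and that median shifted by 0.088 and 0.089. Erbb2 shares 9 bases of exon with Mien1 on the opposite strand, 0.173% of its exon length, and the strand setting of the counting is not given in the sources used here.

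Erbb4 (ENSMUSG00000062209, chromosome 1, 68032186 to 69108059, minus strand), the second neuregulin receptor, had 0 counts in each of the 8 libraries, which allows at most 0.0868 CPM in the shallowest of them. It gave no test in any comparison.

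**Figure D1:**
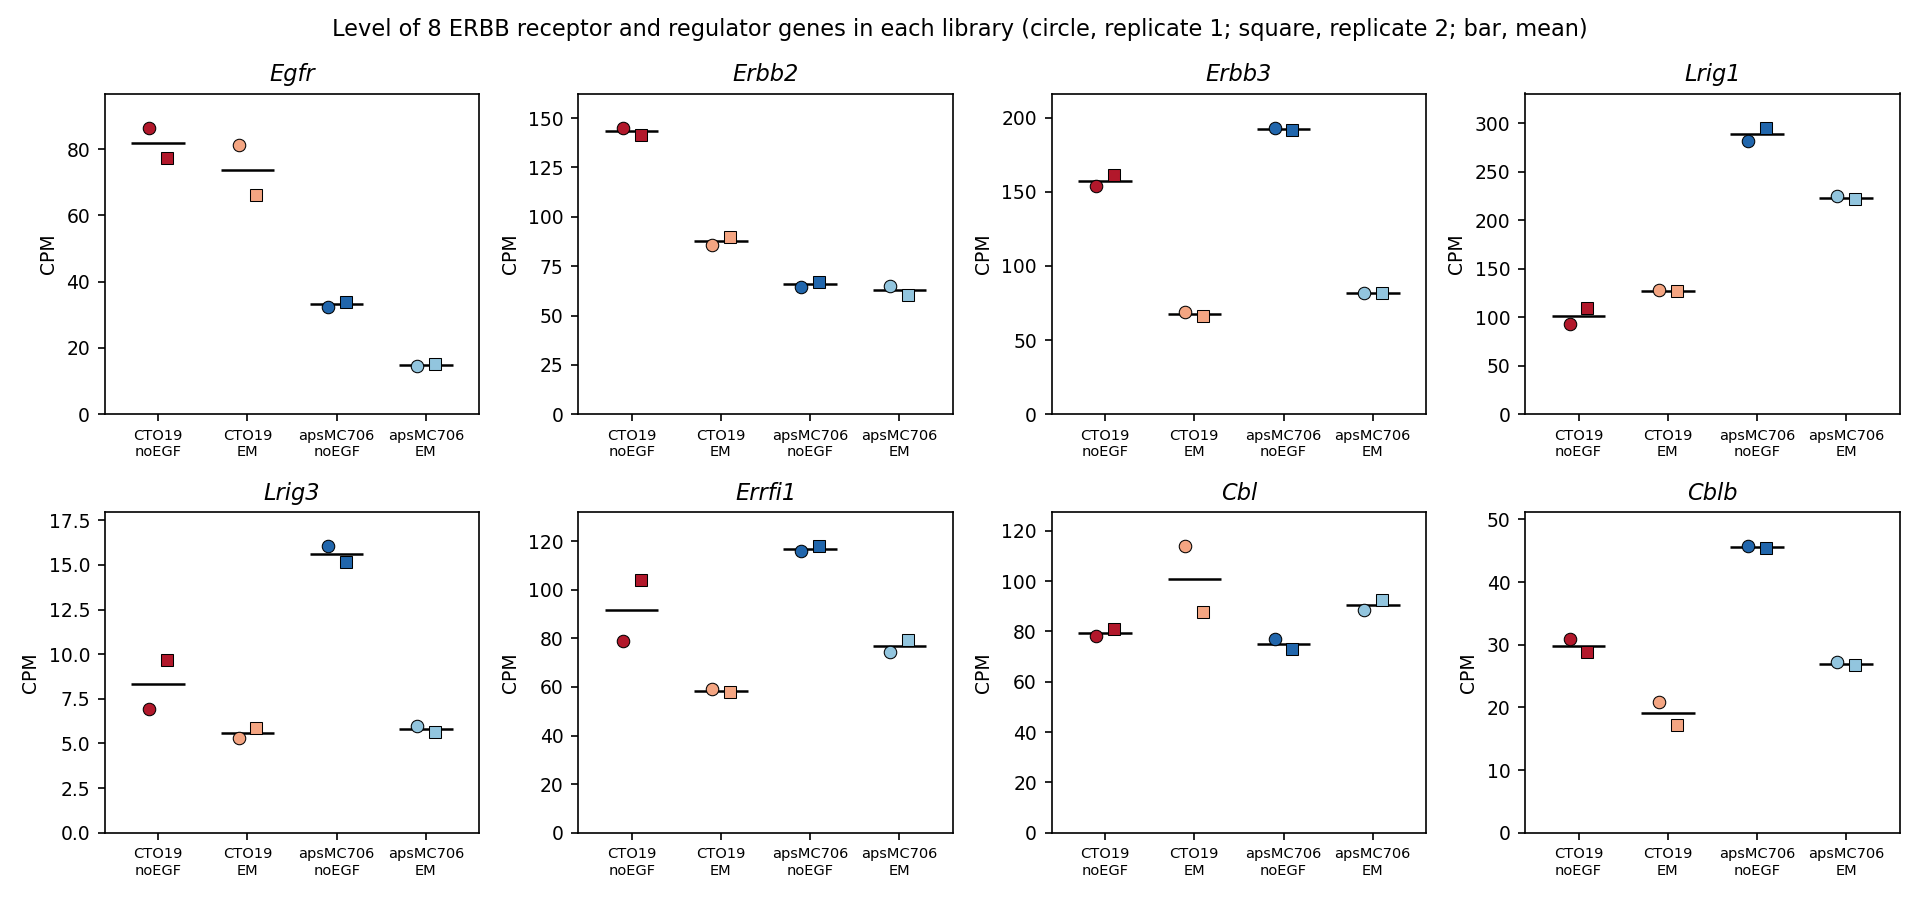
Level in CPM (linear axes from 0) of the 8 genes with counts, in each library; circles are replicate 1, squares replicate 2 and bars the mean of the 2 libraries of a group. Erbb3 is higher in noEGF in both lines, Egfr separates the media in apsMC706 (32.2 and 34.0 CPM in noEGF, 14.6 and 15.1 CPM in EM) and Erbb2 in CTO19 (145 and 142 CPM in noEGF, 85.9 and 89.9 CPM in EM), while Lrig1 moves in opposite directions in the lines.

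To set the receptors beside each other, CPM were divided by the exon length of each gene in kilobases, and each receptor was expressed as its share of the summed receptor level in a library. The summed receptor level was 61.0 and 60.8 CPM per kb in CTO19 noEGF and 35.1 and 34.1 CPM per kb in CTO19 EM. In apsMC706 it was 47.4 and 47.7 CPM per kb in noEGF and 27.3 and 26.6 CPM per kb in EM. The sums of noEGF libraries thus lay above those of EM libraries in both lines, and in the group means Erbb3 differed most between the media in both (26.2 CPM per kb in CTO19 noEGF against 11.3 in CTO19 EM, and 32.0 in apsMC706 noEGF against 13.6 in apsMC706 EM). Erbb3 made up 41.9% and 44.1% of the sum in CTO19 noEGF, against 32.6% and 32.4% in CTO19 EM, and 67.8% and 66.7% in apsMC706 noEGF, against 49.7% and 51.2% in apsMC706 EM. Erbb2 made up 45.6% and 44.7% in CTO19 noEGF, against 47.0% and 50.5% in CTO19 EM, and 26.2% and 27.0% in apsMC706 noEGF, against 45.5% and 43.8% in apsMC706 EM. Egfr was the smallest share among the receptors with counts in every library, with 12.5% and 11.2% in CTO19 noEGF, 20.4% and 17.1% in CTO19 EM, 6.01% and 6.29% in apsMC706 noEGF and 4.72% and 5.02% in apsMC706 EM. In noEGF, Erbb2 was the larger by a small margin in both CTO19 libraries, while Erbb3 was the larger by far in apsMC706. These shares are a description by library, and they depend on the length assigned to each gene: by counts without length, Erbb3 exceeded Erbb2 in both CTO19 noEGF libraries (5713 against 5391 counts in replicate 1 and 6483 against 5699 in replicate 2). Likewise, in CTO19 EM the Egfr counts exceeded the Erbb3 counts in replicate 1 (2809 against 2379) and were just below them in replicate 2 (2353 against 2368).

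**Figure D2:**
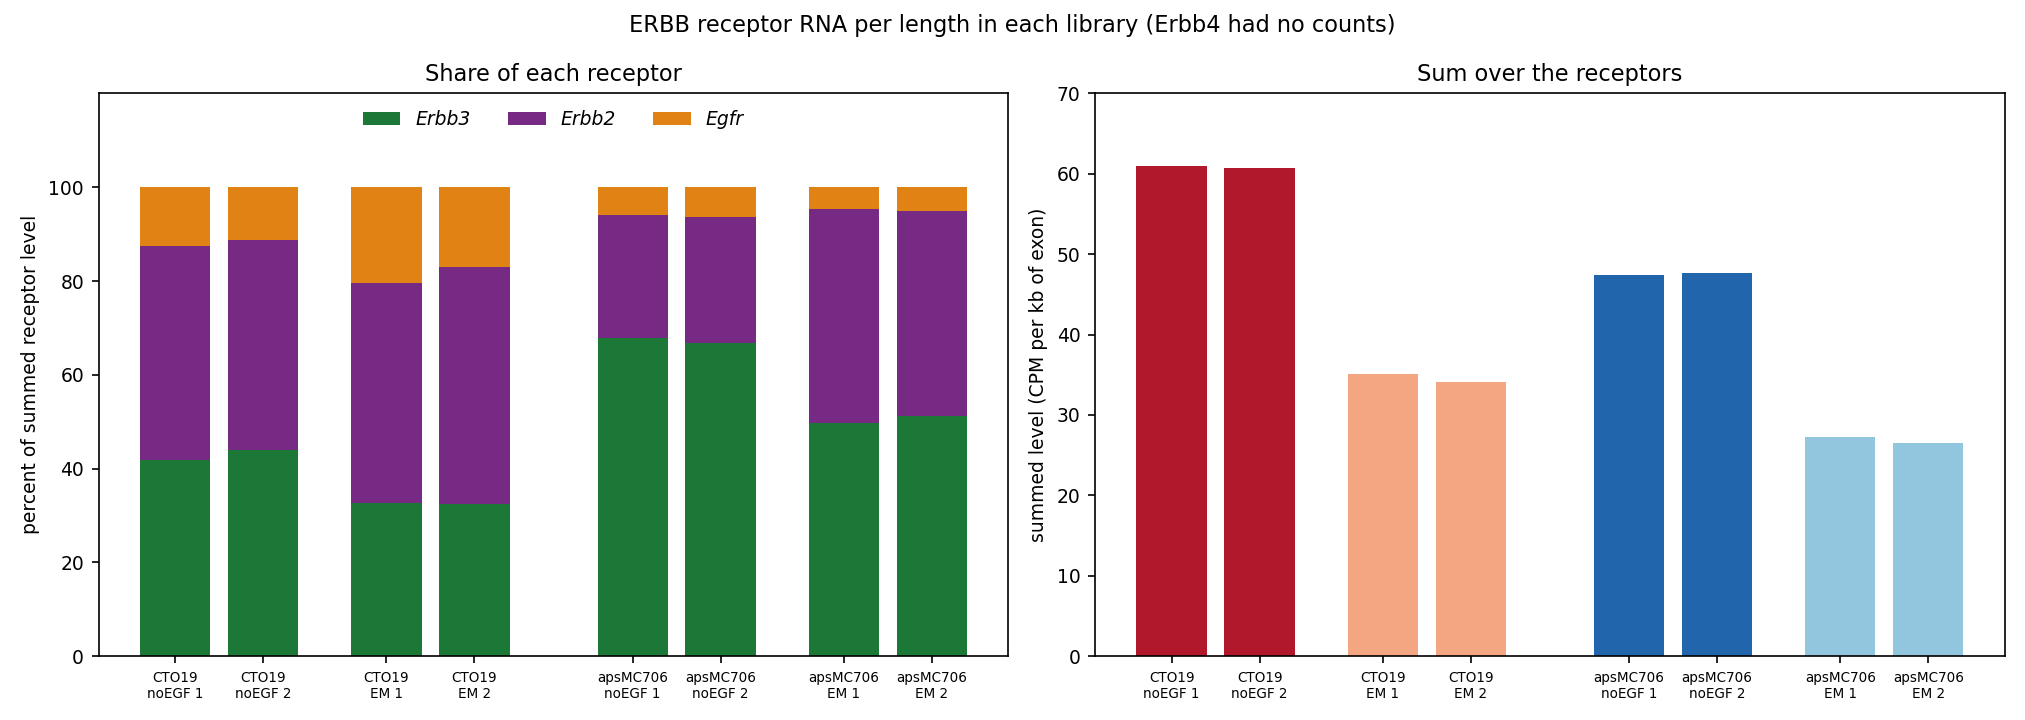
Left, share of Egfr, Erbb2 and Erbb3 in the summed length-scaled receptor level of each library, in percent; right, that sum in CPM per kilobase of exon (linear axis from 0). The sum is 60.8 and 61.0 in CTO19 noEGF against 34.1 and 35.1 in CTO19 EM, and Erbb3 is 66.7% and 67.8% of it in apsMC706 noEGF against 49.7% and 51.2% in apsMC706 EM.

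The LRIG genes, which encode transmembrane regulators, came next. Lrig3 rose in both lines and more in apsMC706, whereas Lrig1 fell in CTO19 and rose in apsMC706. Lrig1 (ENSMUSG00000030029, chromosome 6, 94604529 to 94700158, minus strand) had 93.1 and 109 CPM in CTO19 noEGF, against 128 and 127 CPM in CTO19 EM. It had 282 and 295 CPM in apsMC706 noEGF, against 225 and 222 CPM in apsMC706 EM. The libraries of the 2 media did not overlap within either line, but their order was reversed. On the log2 scale the change was -0.33 in CTO19 (SE 0.0617, adjusted p = 0.000523) and 0.37 in apsMC706 (SE 0.0593, adjusted p = 0.000151), and the responses differed by -0.70 (SE 0.0856, adjusted p = 2.49e-05). Without CTO19 noEGF replicate 1 the CTO19 change was -0.21 and still passed the threshold. Lrig1 shares 144 bases of exon, 2.58% of its exon length, with Slc25a26 on the opposite strand.

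Lrig3 (ENSMUSG00000020105, chromosome 10, 125966168 to 126015359, plus strand), a relative of Lrig1 whose action on ERBB receptors is less settled, was the lowest of the genes with counts. It had 6.94 and 9.69 CPM in CTO19 noEGF, against 5.33 and 5.84 CPM in CTO19 EM, which were 258, 390, 184 and 208 counts. In apsMC706 it had 16.0 and 15.2 CPM in noEGF, against 5.98 and 5.64 CPM in EM. The 4 EM libraries of the 2 lines lay close together, and the noEGF libraries lay above them in each line. The change in CTO19 was 0.58 on the log2 scale (SE 0.140, adjusted p = 0.00261) and 1.43 in apsMC706 (SE 0.129, adjusted p = 4.58e-07), and the responses differed by -0.85 (SE 0.193, adjusted p = 0.00217). Without CTO19 noEGF replicate 2 the CTO19 change was 0.32 and without replicate 1 of that group it was 0.80, and it passed the threshold in both cases.

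The intracellular inhibitor Errfi1 (ENSMUSG00000028967, chromosome 4, 150853919 to 150868892, plus strand) rose in both lines. It had 78.9 and 104 CPM in CTO19 noEGF, against 59.0 and 58.0 CPM in CTO19 EM. It had 116 and 118 CPM in apsMC706 noEGF, against 74.2 and 79.3 CPM in apsMC706 EM. The media did not overlap within a line, and the 2 CTO19 noEGF libraries lay further apart than any other pair for this gene. The log2 fold change was 0.65 in CTO19 (SE 0.130, adjusted p = 0.00612) and 0.61 in apsMC706 (SE 0.127, adjusted p = 0.0071). The responses differed by 0.04 (95% interval -0.42 to 0.50, adjusted p = 0.884), an interval that leaves room for a difference as large as most of the response itself. The CTO19 call was lost without CTO19 EM replicate 1 (adjusted p = 0.073) or 2 (adjusted p = 0.0801), and without CTO19 noEGF replicate 2 the difference was -0.25 and passed the threshold (adjusted p = 0.00536).

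Of the ubiquitin ligases, Cblb rose in both lines and Cbl was lower in every noEGF library than in the EM libraries of its line. Cblb (ENSMUSG00000022637, chromosome 16, 52031225 to 52208048, plus strand) had 30.9 and 28.8 CPM in CTO19 noEGF, against 20.9 and 17.3 CPM in CTO19 EM. In apsMC706 it had 45.7 and 45.4 CPM in noEGF, against 27.3 and 26.7 CPM in EM. The media lay apart in both lines. Its log2 fold change was 0.65 in CTO19 (SE 0.0760, adjusted p = 3.4e-06) and 0.76 in apsMC706 (SE 0.0705, adjusted p = 2.48e-07), with a difference of -0.11 (95% interval -0.33 to 0.11, adjusted p = 0.394). Without CTO19 EM replicate 2 that difference was -0.24 and passed the threshold (adjusted p = 0.0258).

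Cbl (ENSMUSG00000034342, chromosome 9, 44142976 to 44234049, minus strand) had 78.1 and 80.9 CPM in CTO19 noEGF, against 114 and 87.8 CPM in CTO19 EM. It had 77.1 and 72.8 CPM in apsMC706 noEGF, against 88.3 and 92.6 CPM in apsMC706 EM. The noEGF libraries of both lines lay below all 4 EM libraries, by a small margin. On the log2 scale noEGF minus EM was -0.34 in CTO19 (SE 0.119, adjusted p = 0.044) and -0.27 in apsMC706 (SE 0.120, adjusted p = 0.0924), with a difference of -0.07 (95% interval -0.49 to 0.35, adjusted p = 0.764). The CTO19 EM libraries set much of this spread: without replicate 1 or 2 of that group, Cbl passed the threshold in apsMC706 (log2 fold change -0.28 in each case, adjusted p = 1.07e-05 and 1.14e-05), and without replicate 2 the difference was -0.24 (adjusted p = 0.00384). The CTO19 change was -0.15 without CTO19 EM replicate 1 and -0.52 without replicate 2, and it passed the threshold in both cases. That call was lost when any of the other 6 libraries was left out, with adjusted p between 0.0513 and 0.235.

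**Figure D3:**
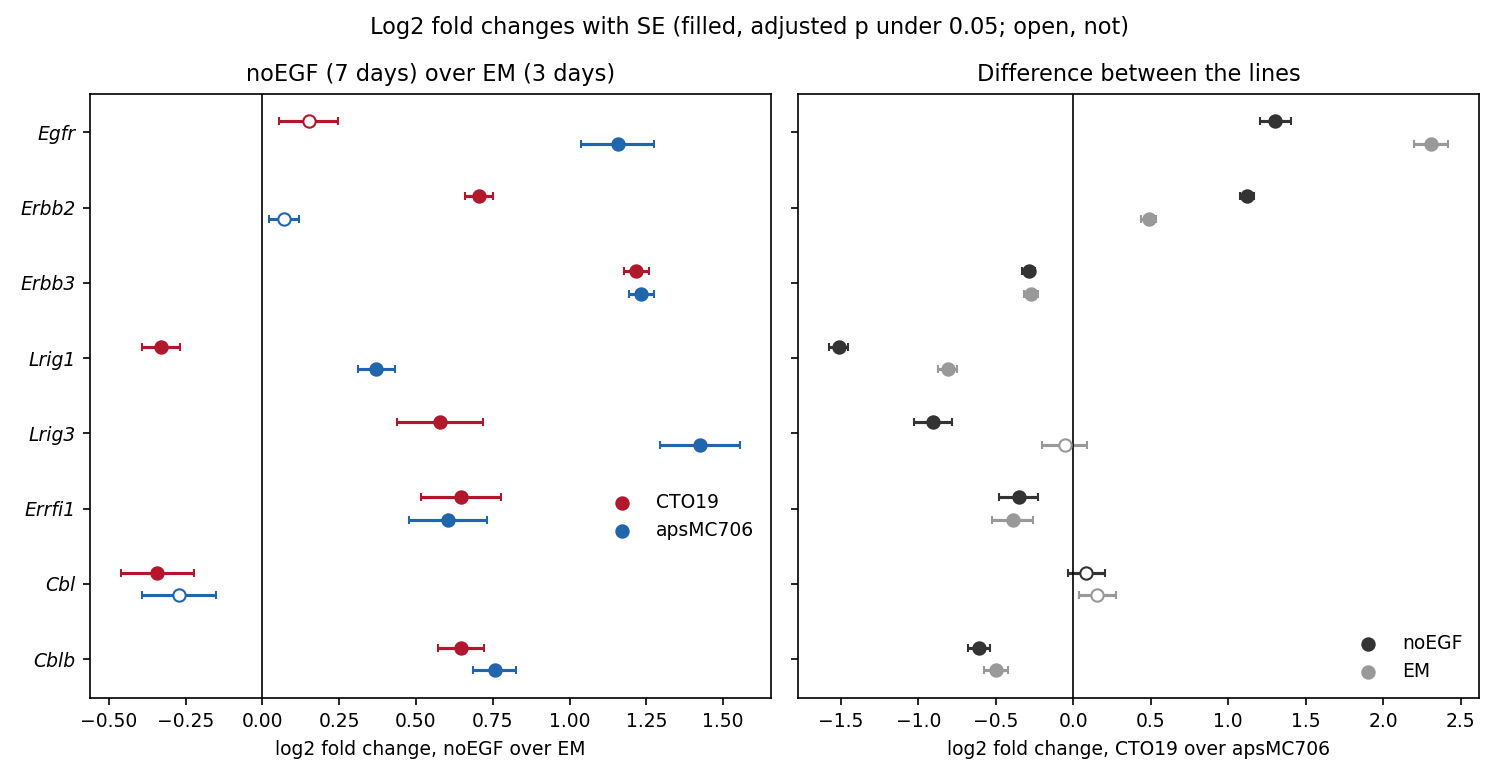
Log2 fold changes of the 8 genes with their standard errors, for noEGF over EM in each line (left) and for CTO19 over apsMC706 in each medium (right); filled points passed an adjusted p of 0.05 and open points did not. For Erbb3, Errfi1, Cbl and Cblb the responses of the lines gave no called difference, Egfr and Lrig3 respond more in apsMC706 (1.16 and 1.43) than in CTO19 (0.15 and 0.58), Erbb2 responds in CTO19 (0.71), and Lrig1 has opposite signs.

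Counted over the list, 6 of the 8 genes tested rose in apsMC706 noEGF against apsMC706 EM, where 34.1% of all 16719 genes rose, and 0 fell, where 33.1% fell. That count of 0 was the same at an unadjusted p under 0.05 and with limma-voom, and was 1 (Cbl) with DESeq2. In CTO19, 5 of 8 rose, where 34.7% of all genes rose, and 2 fell (Lrig1 and Cbl), where 33.3% fell. The median log2 fold change of the 8 genes was 0.61 in CTO19, beside 0.02 for all genes tested, and 0.68 in apsMC706, beside 0.00 for all genes. When the CTO19 response was compared with that of apsMC706, 1 of 8 genes was higher (Erbb2), where 30.4% of all genes were, and 3 were lower (Egfr, Lrig1 and Lrig3), where 25.6% were. With 4 of the 8 differing between the lines and 56% of all genes doing so, the share of line-dependent responses was near the background.

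Over both lines together, with line as a further term, 6 of 8 genes rose in noEGF, where 25.5% of all genes rose, and 1 fell (Cbl), where 23.3% fell. The median log2 fold change was 0.63, beside 0.03 for all genes tested. Erbb3 rose 2.34-fold, Lrig3 2.01-fold (log2 fold change 1.005, SE 0.200, adjusted p = 0.00541), Cblb 1.63-fold (0.70, SE 0.0764, adjusted p = 0.000428) and Errfi1 1.54-fold (0.63, SE 0.0878, adjusted p = 0.00125). Egfr (0.64, SE 0.205) and Erbb2 (0.39, SE 0.128) had larger errors in this model, in which the unlike responses of CTO19 and apsMC706 add to the spread. Cbl fell 1.24-fold, at -0.31 on the log2 scale (SE 0.0851, adjusted p = 0.0208), and Lrig1, which moved in opposite directions, gave 0.02 (95% interval -0.32 to 0.36, adjusted p = 0.921).

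The pooled calls of Egfr, Erbb2 and Cbl rested on single libraries. Egfr lost its call without either library of apsMC706 EM (adjusted p = 0.101 and 0.104), either of apsMC706 noEGF (0.0782 and 0.0762) or CTO19 EM replicate 2 (0.0653), Erbb2 without apsMC706 EM replicate 2 (0.0572) or either CTO19 EM library (0.114 and 0.118), and Cbl without either CTO19 noEGF library (0.115 and 0.100), apsMC706 EM replicate 2 (0.0519) or apsMC706 noEGF replicate 2 (0.0524). With the 2 libraries of each group summed, so that the line was the unit of replication, none of the 8 genes and 0 of all 16719 passed with edgeR, while 4 of the 8 and 2809 of all genes were under 0.05 before adjustment.

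The lines also differed in the levels of these genes whatever the medium. In both media CTO19 had more Egfr and Erbb2 RNA and less Erbb3, Lrig1, Errfi1 and Cblb RNA than apsMC706. Egfr was 2.47-fold higher in CTO19 than in apsMC706 in noEGF (log2 fold change 1.30, SE 0.101, adjusted p = 4.71e-06) and 4.96-fold higher in EM (2.31, SE 0.112, adjusted p = 2.77e-07). Erbb2 was 2.18-fold higher in CTO19 in noEGF (adjusted p = 8.24e-12) and 1.40-fold higher in EM (adjusted p = 2.35e-07). Lrig1 was 2.85-fold lower in CTO19 in noEGF (adjusted p = 3.61e-10) and 1.75-fold lower in EM (adjusted p = 1.69e-07). The gap between the lines was thus narrower in noEGF for Egfr and wider in noEGF for Erbb2 and Lrig1, which is the same difference tested above.

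Erbb3 was 1.22-fold lower in CTO19 in noEGF and 1.21-fold lower in EM, and Cblb was 1.53-fold lower in CTO19 in noEGF and 1.41-fold lower in EM. Lrig3 was 1.87-fold lower in CTO19 in noEGF (adjusted p = 1.55e-05), while in EM its log2 difference was -0.06 (95% interval -0.38 to 0.27, adjusted p = 0.75). Errfi1 was 1.27-fold lower in noEGF (adjusted p = 0.0443) and 1.31-fold lower in EM (adjusted p = 0.0399), calls that were lost when any of 6 libraries was left out, with adjusted p up to 0.133 in noEGF and up to 0.207 in EM, while without CTO19 noEGF replicate 2 the log2 difference in noEGF was -0.65. Cbl gave 0.08 in noEGF (adjusted p = 0.54) and 0.16 in EM (adjusted p = 0.284). Without CTO19 EM replicate 2, the EM value of Cbl was 0.33 and passed the threshold (adjusted p = 1.27e-05). In noEGF, 2 of 8 genes were higher in CTO19, where 45.7% of all genes were, and 5 were lower, where 34.3% were. In EM, 2 were higher, where 37.5% of all genes were, and 4 were lower, where 33.8% were.

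The order of the levels per kilobase differed between the groups. In CTO19 noEGF, Erbb2 averaged 27.5 CPM per kb, Erbb3 26.2 and Errfi1 25.5, and the Errfi1 libraries (22.0 and 29.1) lay on either side of both receptors, so that Errfi1 was not ordered against them beyond its spread. The Erbb2 libraries (27.2 and 27.8) lay just above the Erbb3 libraries (25.6 and 26.8). Below them came Lrig1 with 18.1, Egfr with 7.22, Cbl with 6.44, Cblb with 2.85 and Lrig3 with 0.996 CPM per kb. In CTO19 EM, Lrig1 was highest with 22.8, followed by Erbb2 with 16.9, Errfi1 with 16.3 and Erbb3 with 11.3, and then by Cbl with 8.16 and Egfr with 6.51 CPM per kb, whose libraries overlapped, Cblb with 1.82 and Lrig3 with 0.669. Lrig1 led in apsMC706 too, with 51.7 CPM per kb in noEGF and 40.0 in EM. In apsMC706 noEGF, Errfi1 followed with 32.6, Erbb3 with 32.0, Erbb2 with 12.6, Cbl with 6.07, Cblb with 4.35, Egfr with 2.92 and Lrig3 with 1.87 CPM per kb. In apsMC706 EM, Errfi1 followed with 21.4, Erbb3 with 13.6, Erbb2 with 12.0, Cbl with 7.33, Cblb with 2.57, Egfr with 1.31 and Lrig3 with 0.696 CPM per kb. In this order Egfr lay above Cblb in both CTO19 groups and below it in both apsMC706 groups. When the longest annotated transcript was used in place of all exons, Errfi1 came above Erbb2 in both CTO19 groups, and in apsMC706 noEGF Cblb came above Cbl and Lrig3 above Egfr.

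**Figure D4:**
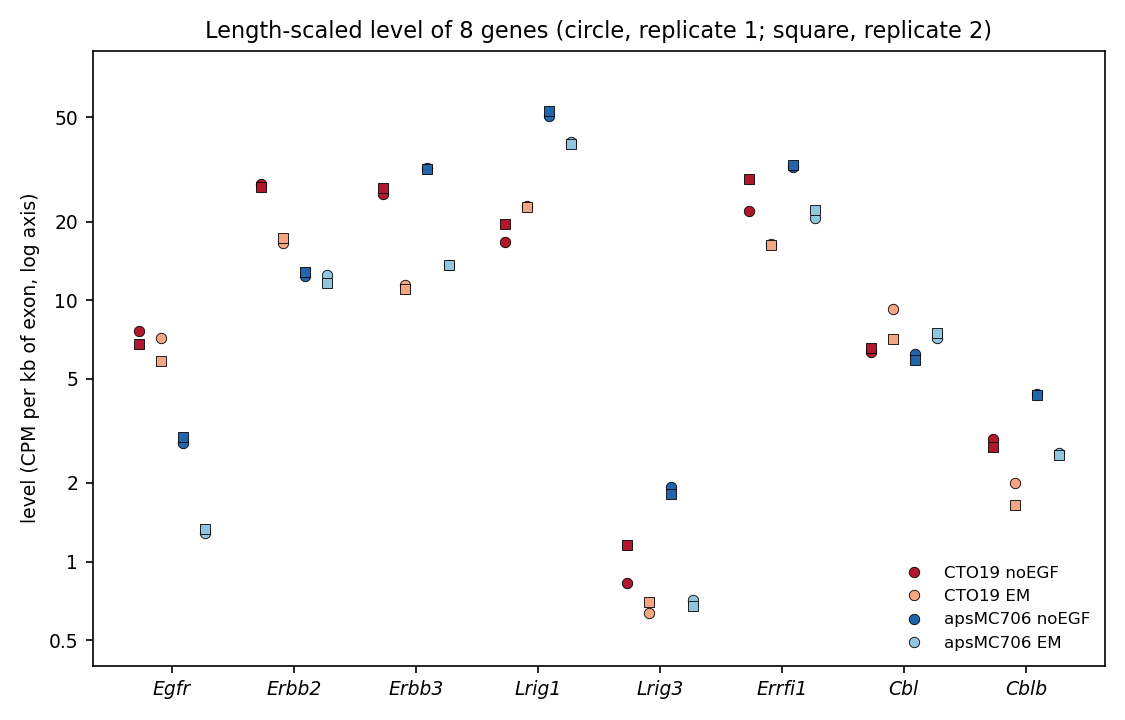
Level in CPM per kilobase of exon (log axis) of the 8 genes with counts; circles are replicate 1 and squares replicate 2, with the groups from left to right as in the legend. Lrig1 has the highest level in apsMC706 (51.7 in noEGF and 40.0 in EM), Erbb2 stands just above Erbb3 in CTO19 noEGF (27.5 and 26.2), and Lrig3 is lowest in every group (0.669 to 1.87).

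The sequence before the RefSeq transcription start was set beside these patterns for genes that rose in both lines and genes that rose in 1 line. RefSeq (build GRCm38.p6) gave windows of 250 bases for 8 of the 9 genes, 2 of them for Errfi1, and Erbb3 was the missing entry. The gene positions given above come from another annotation, GENCODE, whose starts can differ. By those positions the Cblb window and Errfi1 window 2 lay inside the gene, and the end of the Erbb2 window reached into it. Both strands were searched for a forkhead site (GTAAACA, the core bound by FOXO factors), an AP-1 site (TGANTCA) and a GC box (GGGCGG, bound by SP factors). Among 32851 promoter windows of the same length, 3.17% held the forkhead letters, 6.75% the AP-1 letters and 32.7% a GC box. None of the 9 windows held the forkhead or AP-1 letters, and 6 held a GC box. Of the genes printed, Errfi1 (chr4:150853546-150853795 and chr4:150854820-150855069, plus strand) and Cblb (chr16:52031299-52031548, plus strand) rose in both lines, while Egfr (chr11:16751953-16752202, plus strand) rose in apsMC706 and Erbb2 (chr11:98412234-98412483, plus strand) in CTO19, and they were chosen with these values known. Capitals mark the GC box on either strand.
Errfi1 window 1: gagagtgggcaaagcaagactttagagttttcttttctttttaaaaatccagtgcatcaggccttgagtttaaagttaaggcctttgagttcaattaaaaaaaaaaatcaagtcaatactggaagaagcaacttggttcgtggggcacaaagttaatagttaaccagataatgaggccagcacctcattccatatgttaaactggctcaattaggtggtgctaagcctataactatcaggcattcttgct
Errfi1 window 2: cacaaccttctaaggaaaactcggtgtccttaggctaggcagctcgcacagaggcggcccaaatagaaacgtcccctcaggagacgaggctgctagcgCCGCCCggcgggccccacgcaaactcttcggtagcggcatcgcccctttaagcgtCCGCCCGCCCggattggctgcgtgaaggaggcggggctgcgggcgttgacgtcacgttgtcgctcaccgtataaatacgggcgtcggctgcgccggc
Cblb: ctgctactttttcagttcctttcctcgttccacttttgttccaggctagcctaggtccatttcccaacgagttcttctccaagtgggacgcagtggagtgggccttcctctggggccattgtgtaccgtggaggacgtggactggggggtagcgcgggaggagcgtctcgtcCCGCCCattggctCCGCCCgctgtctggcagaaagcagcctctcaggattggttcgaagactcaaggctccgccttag
Egfr: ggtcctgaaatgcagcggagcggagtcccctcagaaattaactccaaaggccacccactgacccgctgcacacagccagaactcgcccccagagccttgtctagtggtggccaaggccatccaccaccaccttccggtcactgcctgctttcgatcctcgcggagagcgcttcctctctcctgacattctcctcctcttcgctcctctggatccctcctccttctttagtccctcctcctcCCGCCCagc
Erbb2: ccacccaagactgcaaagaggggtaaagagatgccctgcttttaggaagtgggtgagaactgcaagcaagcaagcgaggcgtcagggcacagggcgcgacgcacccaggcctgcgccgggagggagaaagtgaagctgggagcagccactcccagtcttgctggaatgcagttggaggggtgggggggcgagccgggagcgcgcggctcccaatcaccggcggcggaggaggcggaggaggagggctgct
Errfi1 window 2 held 3 GC boxes, a pair of them overlapping, Cblb held 2, Egfr held 1 and Erbb2 and Errfi1 window 1 held none. Of the windows not printed, Lrig1 held 2, Lrig3 held 1, Cbl held 3 and Erbb4 held none. GC content was 38.0% in Errfi1 window 1, 64.8% in Errfi1 window 2, 58.8% in Cblb, 60.8% in Egfr and 66.0% in Erbb2. A match describes these letters and is not a binding site, and GC boxes were present in genes that responded in both lines (Cblb), in 1 line (Egfr) and in opposite directions (Lrig1).

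Genes whose log2 CPM followed each of the 8 genes most closely over the 8 libraries were taken by Pearson r from 9210 genes whose log2 CPM averaged 3 or more. Since the 8 libraries fall into 4 groups of 2, many genes follow any such pattern, and r is a description. The Egfr pattern was closest to those of the kinase Mink1 (r = 0.999), the lysine methyltransferase Setd7 (0.998) and Zfand2a (0.996), and 336 genes had r above 0.95. Setd7 averaged 159 CPM in CTO19 noEGF, 145 in CTO19 EM, 91.9 in apsMC706 noEGF and 55.4 in apsMC706 EM, so that, like Egfr, its levels in the 2 media stood further apart in apsMC706. The Erbb2 pattern was closest to those of the zinc transporter Slc30a1 (0.999), the transcription factor Zbtb17 (0.997) and the Wnt receptor Fzd2 (0.996), which averaged 40.2 CPM in CTO19 noEGF, 14.1 in CTO19 EM, 6.92 in apsMC706 noEGF and 6.20 in apsMC706 EM. Erbb3 was closest to the tetraspanin Tspan7 (0.998), Heca (0.997) and the class Ib MHC gene H2-Q7 (0.996). Tspan7 averaged 50.03 CPM in CTO19 noEGF, 28.6 in CTO19 EM, 55.7 in apsMC706 noEGF and 31.8 in apsMC706 EM. Lrig1 was closest to Fam84b (0.998), the phosphodiesterase Pde5a (0.997) and the enolase Eno3 (0.996), and 390 genes had r above 0.95. Lrig3 was closest to Wdsub1 (0.991), Lrfn4 (0.990) and the protein kinase A subunit Prkacb (0.987), Errfi1 to Harbi1 (0.982), the chemokine Cxcl15 (0.981) and Zfp703 (0.981), and Cblb to the vesicle protein Vamp2 (0.995), the repair factor Ercc6 (0.993) and Ccnl2 (0.993). Cbl had the fewest genes like it, 2 with r above 0.95: Cep290 (0.965) and Sec24b (0.954), followed by Helz (0.948).

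The rest of the pathway was described from lists. Each count below is over noEGF against EM in both lines together, to be read against 25.5% of all genes rising and 23.3% falling. A pooled value can join responses of unlike size in the lines. Of 9 tested ligand genes of 11 listed, 2 rose and 3 fell (median log2 fold change -0.18, beside 0.03 for all genes), and 1 rose without either apsMC706 EM library or without apsMC706 noEGF replicate 2, and with a filter of 1 CPM in 4 libraries. Egf itself rose 2.69-fold at a low level, 0.917 CPM in CTO19 noEGF and 0.387 in CTO19 EM, and 2.08 in apsMC706 noEGF and 0.698 in apsMC706 EM (adjusted p = 0.00125). Tgfa, another ligand of Egfr, rose 1.32-fold (adjusted p = 0.0197), with 98.7 CPM in CTO19 noEGF, 89.4 in CTO19 EM, 31.8 in apsMC706 noEGF and 20.1 in apsMC706 EM. The genes that fell were the neuregulins Nrg2 and Nrg1, ligands of Erbb3 and Erbb4, and Epgn, a ligand of Egfr. Nrg1 passed the filter on low counts only through its level in CTO19 EM, so its fall is not independent of that filter. In CTO19 the falls were Nrg2 with 1.73 CPM in noEGF against 9.55 in EM, Nrg1 with 0.245 in noEGF against 0.784 in EM and Epgn with 49.2 in noEGF against 117 in EM, while all 3 averaged at most 0.271 CPM in either apsMC706 group and did not pass the threshold there. Tgfa responded more in apsMC706 (CTO19 response minus apsMC706 response -0.52, adjusted p = 1.57e-05).

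Of 16 tested ubiquitin ligases and deubiquitinases that act on receptors, 6 rose and 2 fell (median 0.09). Cblc, the third CBL gene, rose (log2 fold change 0.36, adjusted p = 0.0168), as did the ligase Nedd4 (0.51, adjusted p = 0.0105), the endosomal deubiquitinase Stambp (0.37, adjusted p = 0.00451) and the deubiquitinase Otud7b (0.27, adjusted p = 0.00396). Cblc had 41.8 CPM in CTO19 noEGF, 37.5 in CTO19 EM, 34.0 in apsMC706 noEGF and 22.9 in apsMC706 EM. Nedd4 rose by 0.24 on the log2 scale in CTO19 and by 0.77 in apsMC706, a difference of -0.53 (adjusted p = 4.33e-07). The genes that fell were the ligase Rnf126 (-0.33, adjusted p = 0.00292) and Ubash3b (-1.67, adjusted p = 0.00267), a phosphatase that counters CBL. Ubash3b had 3.64 CPM in CTO19 noEGF against 12.6 in CTO19 EM, and averaged 0.0268 CPM in apsMC706 noEGF and 0.0136 in apsMC706 EM.

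Of 17 tested genes of the remaining negative regulators of ERBB receptors, 5 rose and 3 fell (median 0.15), and 3 rose without apsMC706 EM replicate 1 or CTO19 EM replicate 2. Lrig2, the third LRIG gene, rose in both lines, with 26.6 CPM in CTO19 noEGF against 15.3 in CTO19 EM and 16.7 in apsMC706 noEGF against 11.4 in apsMC706 EM (log2 fold change 0.67, SE 0.0858, adjusted p = 0.000833). The difference of its responses was 0.25 (adjusted p = 0.0728). Socs3, an inducible inhibitor of cytokine receptor signalling, rose 3.04-fold (adjusted p = 0.00304), and Muc1, a transmembrane mucin on this list that is known to bind ERBB receptors and to slow the loss of EGFR, not to promote it, rose 11.8-fold (adjusted p = 0.000429), with 12.6 CPM in CTO19 noEGF against 1.78 in CTO19 EM and 8.53 in apsMC706 noEGF against 0.337 in apsMC706 EM. Socs3 rose by 0.92 on the log2 scale in CTO19 and by 2.30 in apsMC706, a difference of -1.38 (adjusted p = 9.77e-07). The tetraspanin Cd82 rose by 0.29 on the log2 scale (adjusted p = 0.0212). The phosphatases Ptpn2 (-0.43, adjusted p = 0.000633) and Ptpn1 (-0.28, adjusted p = 0.00462) fell, as did the adaptor Dok2 (-0.56, adjusted p = 0.0304). Within apsMC706, Dok2 missed the threshold, with 0.309 CPM in noEGF against 0.523 in EM (adjusted p = 0.0893). Cd82 missed it there too (log2 fold change 0.14, adjusted p = 0.0541).

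The genes that carry receptors through the cell moved in both directions. Of 26 tested clathrin adaptor and endocytosis genes, 6 rose and 9 fell (median -0.12). The early endosome GTPases Rab5a (log2 fold change 0.44, adjusted p = 0.000383) and Rab5b (0.56, adjusted p = 0.00159) and the dynamin Dnm2 (0.38, adjusted p = 0.0126) rose, and the clathrin assembly protein Picalm (-0.51, adjusted p = 0.00256), the AP-2 subunits Ap2m1 (-0.47, adjusted p = 0.00477) and Ap2a2 (-0.37, adjusted p = 0.00127) and the kinase Tnk2 (-0.47, adjusted p = 0.000542) fell. Of 24 ESCRT and lysosomal sorting genes 6 rose and 5 fell (median 0.05). With a filter of 1 CPM in 4 libraries 10 rose, and with 1 library left out 2 to 4 fell. The number that fell was 2 without apsMC706 EM replicate 2 or either apsMC706 noEGF library and 3 without apsMC706 EM replicate 1 or CTO19 noEGF replicate 1. Among these genes were the lysosomal membrane protein Lamp2 (0.65, adjusted p = 0.000132) and the ESCRT-III subunit Chmp4b (0.46, adjusted p = 0.0022), which rose, and Chmp6 (-0.50, adjusted p = 0.00137), which fell. Lamp2 had 329 CPM in CTO19 noEGF against 210.1 in CTO19 EM, and 231 in apsMC706 noEGF against 146 in apsMC706 EM. Of 12 recycling genes 3 rose and 6 fell (median -0.18), and 3 fell without CTO19 noEGF replicate 1 and 2 without replicate 2. Rab11a (0.35, adjusted p = 0.00476) and its effector Rab11fip1 (0.68, adjusted p = 0.0142) rose. The Rab11fip1 rise was 1.11 in CTO19 and 0.24 in apsMC706, a difference of 0.87 (adjusted p = 3.32e-08). The retromer subunits Vps35 (-0.25, adjusted p = 0.00478) and Vps26a (-0.22, adjusted p = 0.00953) and the GTPase Rab35 (-0.32, adjusted p = 0.00416) fell.

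Downstream of the receptors, 4 of 26 adaptor and kinase genes rose and 9 fell (median -0.01), and 4 fell without CTO19 noEGF replicate 1 and 5 without replicate 2. The docking protein Gab1 rose (log2 fold change 0.71, adjusted p = 0.00936), with 68.2 CPM in CTO19 noEGF against 31.5 in CTO19 EM and 41.9 in apsMC706 noEGF against 33.8 in apsMC706 EM. The kinase gene Mapk3 rose (0.36, adjusted p = 0.00338), while Hras (-0.64, adjusted p = 0.000194) and Akt1 (-0.57, adjusted p = 0.000458) fell. Of 15 ERK feedback and target genes, 4 rose and 4 fell over both lines. The number that fell was 0 without either CTO19 noEGF library, and 2 without either CTO19 EM library, with no filter on low counts, with a filter of 1 CPM in 4 libraries and with the replicate block. Within the lines, 4 rose and 10 fell in CTO19, and 9 rose and 3 fell in apsMC706. In the difference of the responses 14 of the 15 were lower in CTO19 and 0 higher, where 25.6% and 30.4% of all genes were, with a median of -1.22 beside 0.06 for all genes. Most genes of this list thus had a lower response in CTO19. This is a count of genes in 1 line against 1 line, and the list was not tested as a set. Errfi1, itself known as a feedback gene of ERK signalling, rose in both lines and had no detectable difference.

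Examples in the list were Etv5, with 5.72 CPM in CTO19 noEGF against 18.8 in CTO19 EM and 57.9 in apsMC706 noEGF against 63.5 in apsMC706 EM, and Egr1, with 31.5 CPM in CTO19 noEGF against 21.5 in CTO19 EM and 63.5 in apsMC706 noEGF against 17.1 in apsMC706 EM. The differences of their responses were -1.58 (adjusted p = 1.03e-08) for the transcription factor Etv5 and -1.34 (adjusted p = 1.99e-08) for the early response factor Egr1. Spry1, an inhibitor of receptor tyrosine kinase signalling, rose in both lines (log2 fold change 0.98, adjusted p = 8.33e-05), with a difference of 0.10 (adjusted p = 0.381).

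Of 17 tested genes among 21 listed for receptor tyrosine kinases outside the ERBB family, 8 rose and 4 fell (median 0.27). The number that fell was 2 to 3 with 1 library left out: 2 without apsMC706 EM replicate 2, either apsMC706 noEGF library, CTO19 EM replicate 2 or CTO19 noEGF replicate 1. It was also 2 with a filter of 1 CPM in 4 libraries and with the replicate block. The genes of smallest p that rose were the ephrin receptor Ephb3 (log2 fold change 0.85, adjusted p = 0.000194), Fgfr3 (0.77, adjusted p = 0.000268), the insulin receptor Insr (0.84, adjusted p = 0.000338) and Fgfr1 (1.53, adjusted p = 0.00133). Insr had 53.6 CPM in CTO19 noEGF against 30.9 in CTO19 EM and 66.0 in apsMC706 noEGF against 35.97 in apsMC706 EM, and its responses differed by -0.08 (adjusted p = 0.656). Fgfr1 had 9.34 CPM in CTO19 noEGF against 3.03 in CTO19 EM and 0.0268 CPM in both apsMC706 groups. Axl, a receptor of the TAM family, fell (-1.68, adjusted p = 0.0015), with 101 CPM in CTO19 noEGF against 368 in CTO19 EM and 0.187 CPM in apsMC706 noEGF against 0.188 in apsMC706 EM. Ret (-1.14, adjusted p = 0.00325), Ryk (-0.19, adjusted p = 0.0321) and Ephb2 (-0.24, adjusted p = 0.0353) fell as well. Ret averaged 0.0268 CPM in apsMC706 noEGF against 0.0938 in apsMC706 EM and did not pass the threshold in that line (adjusted p = 0.118). Ephb2 passed in apsMC706 (-0.40) and not in CTO19 (-0.073, adjusted p = 0.147). Within CTO19, 7 of the 17 rose and 7 fell (median -0.07), where 34.7% and 33.3% of all genes did. Within apsMC706, 11 rose and 2 fell (median 0.29), where 34.1% and 33.1% did. In the difference of the responses, 2 were higher in CTO19 and 9 lower, where 30.4% and 25.6% of all genes were. Higher receptor RNA in noEGF was thus found for Erbb3 and for some genes of other receptor families, whose counts differed between the lines. No test set the ERBB family against them.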

How the data were processed

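The labels' protocols describe poly(A)-selected RNA from 8 organoid libraries. The values the authors deposited are raw counts, 1 per Ensembl gene and library. Reads were aligned with STAR 2.7.0a and build mm10 is named, per the submitters' processing notes. How reads were counted (program, strand, annotation, gene filter) is not given in the sources used here.

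GENCODE M21 supplied names, exon lengths and overlaps for 32680 of the 32728 identifiers, and 7747 genes had no count. Analysis used edgeR 4.0.16 under R 4.3.3. The filterByExpr function, given the 4 groups, left 16719 genes holding 99.97% of counts, which were scaled with TMM. Robust quasi-likelihood F-tests, two-sided, were adjusted over all genes tested (Benjamini-Hochberg, threshold 0.05). For both lines together, line and medium were terms (5 residual degrees of freedom, coefficient of biological variation 16.9%), and for the rest the 4 group means were fitted at once (4 and 4.27%). Log2 fold changes are noEGF minus EM or CTO19 minus apsMC706, SE is their standard error, and 95% intervals come from it. Log2 CPM for likeness had a prior count of 2. Count floors cover counting error only, since reads without molecular identifiers are not independent molecules.

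The genes, lists, motifs and naming rule were chosen with earlier results of these data known. The rule named all 9 genes, up to 4 genes per direction and pathway list of smallest p over both lines, the 3 genes most like each gene, and the disrupted genes. Alternatives were scaling by DESeq2 size factors or upper quartiles, no filter or a filter of 1 CPM in 4 libraries, limma-voom (limma 3.58.1), the DESeq2 1.42.0 Wald test, mitochondrial genes removed, a replicate block, line left out as a term, libraries summed per line and medium, a fit of only the 4 libraries compared, and 1 library removed at a time. 1 gene that the rule names is not reported here. The models were also run on simulated independent libraries with the same changes planted in both lines. That setting covers neither line-dependent responses nor technical replicates, and no result here rests on it. Replicates differed by more than sampling noise (chi-square per degree of freedom 3.38 to 10.4 within a group). That does not show that they came from separate cultures. Each library was counted as 1 sample.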

Additional observations from a re-analysis of the deposited data

Results flagged for a closer look

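The noEGF responses of 4 genes differed between the lines by the test of the difference itself, CTO19 minus apsMC706 on the log2 scale. The values were -1.01 for Egfr, 0.64 for Erbb2, -0.70 for Lrig1 and -0.85 for Lrig3. For Egfr and Lrig3 the rise was larger in apsMC706, Erbb2 rose in CTO19 and missed the threshold in apsMC706, and Lrig1 fell in CTO19 and rose in apsMC706. Line cannot be told apart from labelled sex, and each line is a single line, so that the unit behind these differences is 1 line against 1 line. Groups of 2 libraries were too small to look for a library far from the others.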

How the results depend on the processing

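Of 816 alternative log2 fold changes of the 8 genes, 726 kept their direction and their side of the threshold, 54 lost the call, 15 gained one and 21 changed sign. The changes of sign were all of values that did not pass the threshold as reported, and 1 of them, the Errfi1 difference without CTO19 noEGF replicate 2, then passed it. For Lrig1 over both lines the value was -0.0038 with limma-voom and -0.066 to 0.20 with 1 library left out. The difference of the Errfi1 responses was -0.0081 with DESeq2 size factors, -0.033 with upper-quartile factors, -0.044 with no filter, -0.049 with a filter of 1 CPM in 4 libraries, -0.0088 with the DESeq2 Wald test and -0.25 to 0.15 with 1 library left out. With 1 library left out, the differences of the responses ranged from -0.13 to 0.012 for Erbb3, -0.24 to 0.13 for Cbl and -0.24 to 0.038 for Cblb. The line difference of Cbl in noEGF was -0.011 with upper-quartile factors, -0.0033 with no filter, -0.0027 in the 4 libraries alone and -0.026 to 0.13 with 1 library left out. In EM, leaving out 1 library gave -0.13 to 0.0082 for Lrig3 and -0.043 to 0.33 for Cbl.

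Over both lines, the number of the 8 genes that rose was 1 with no line term and 0 with summed libraries, and the number that fell was 0 with the stricter filter, with no line term and with summed libraries, and 0 to 1 with 1 library left out. For all genes, 743 rose and 1063 fell with no line term, and 0 and 0 with summed libraries, the settings that put the line difference into the spread or leave 1 value per line and medium. The number that fell in apsMC706 was 1 with the DESeq2 Wald test and in the 4 libraries alone, and 0 to 1 with 1 library left out. In CTO19 it was 1 with DESeq2 size factors, the stricter filter, limma-voom and the 4 libraries alone, and 1 to 2 with 1 library left out. In the difference it was 3 to 5 with 1 library left out. The cause of these changes was not tested.

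The replicate numbers showed no pairing: the differences of replicate 1 minus replicate 2 in log2 CPM had correlations of -0.0082 to 0.049 between groups. With the replicate block, Egfr (adjusted p = 0.0584) and Erbb2 (0.0679) missed the threshold over both lines, and no other call of the 8 genes changed. Dropping the filter on low counts shifted the median log2 fold change of all genes by -0.12 in the difference of the responses and by -0.13 in the line difference in noEGF, and the stricter filter shifted the line difference in noEGF by -0.10. Of the length-scaled levels 31 of 64 alternatives, of the receptor shares 18 of 24, and of the list counts 66 of 324 moved beyond the spread or by over 1.5 times. Lrig3, with 184 to 588 counts a library, was the gene whose depth limits it most among those with counts, and for Erbb4 depth allows only the upper limit given.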
